A study of Mus musculus with 6 samples.

Results

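The heat shock proteins and chaperonins outside the endoplasmic reticulum (ER) were compared between WT CD4 T cells and CD4 T cells with a targeted deletion of Prkaa1 (AMPK KO). The set was a fixed list of 40 gene symbols, each taken by its name. All 40 were found among the 23282 lines of each sample, and all 40 passed the filter on low values that left 11279 genes for testing. Most of the encoded proteins work in the cytosol and nucleus, and 5 of them (Trap1, Hspa9, Hspd1, Hspe1 and Dnaja3) work mainly in mitochondria.

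WT mice carried floxed Prkaa1 and no Cre (Prkaa1 fl/fl CD4Cre-neg), and in AMPK KO mice the same floxed alleles were exposed to a Cre recombinase driven by the CD4 promoter, both on C57BL/6. Prkaa1 encodes AMPKα1, a catalytic subunit of the energy sensor AMPK. The CD4 promoter is active from the double-positive thymocyte stage, so that this Cre also acts in CD8 T cells. The methods describe female mice of 6 to 8 weeks unless stated otherwise. CD4 T cells of 3 samples per group were taken from spleen and lymph nodes, rested for 1 h and stimulated with anti-CD3 and anti-CD28 (2 µg/mL each). The labels give 24 h of stimulation whereas the methods give 6 h, so the time behind every value below is uncertain. 3′ end libraries (QuantSeq) were made from 500 ng of total RNA, and the samples of a group are described as biologically independent. Values are log2 of normalized reads (scaled by TMM and CPM) plus 1.

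Heat shock proteins are molecular chaperones, which bind unfolded or newly made proteins and help them to fold, to assemble or to be degraded. HSP70 chaperones take up exposed hydrophobic stretches in an ATP cycle that J proteins start and that exchange factors such as the BAG proteins and HSP110 reset, and HSP90 finishes the folding of kinases and receptors together with its cochaperones. The chaperonins are barrels that enclose a substrate. TRiC folds actin and tubulin in the cytosol after delivery by prefoldin, whereas HSP60 and its lid HSP10 act in mitochondria. Heat shock factor 1 (Hsf1) is held inactive by chaperones and, on proteotoxic stress, forms trimers that bind heat shock elements, which are inverted repeats of GAA, and induces Hspa1a, Hspa1b, Hspb1, Dnajb1 and others. T cells raise several chaperones on activation, and HSP90 with Cdc37 stabilizes Lck, the kinase next to the T cell receptor.

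The promoters are shown because heat shock elements are what many of these genes are known to share. RefSeq windows of 300 bases (250 before to 50 after the start, build GRCm38.p6) were found for 33 of the 40 genes. The entries for Hsf1, Hsp90aa1, Hsp90ab1, Hspa8, Hspa9, Cct4 and Pfdn1 were missing. A short element was searched as GAANNTTC or TTCNNGAA and a long element as GAANNTTC followed by NNGAA or TTCNNGAA followed by NNTTC. Both were searched on both strands, and each long element also contains 2 overlapping short ones. At least 1 short element was found in 15 of 33 members (45.5%), against 17.0% of the 27025 genes with a window. A long element was found in 5 of 33 members (15.2%), namely Hsph1, Hspd1, Hspe1, Dnajb6 and Chordc1, against 0.662% of genes. These counts treat related promoters as separate, among them the near-identical windows of Hspa1a and Hspa1b. Hspd1 and Hspe1 overlap by 112 bases on opposite strands, and whether the same elements were counted for both was not examined. In the sequences below the matched elements are in capitals, and all read 5′ to 3′ on the strand of the gene.

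Hspb1 encodes the small heat shock protein HSP27 (HSP25 in mice), and its window was chr5:135887669-135887968 on the plus strand. Of the 2 members past the test threshold that have a window, it was the one with a match, and it held 2 separate short elements, at positions -117 to -110 and -97 to -90 from the start. Dnajb1, which encodes the J protein HSP40 and also passed the threshold, had no match in its window, chr8:83607925-83608224 on the plus strand. This window and those that follow were chosen after the values had been seen.
Hspb1: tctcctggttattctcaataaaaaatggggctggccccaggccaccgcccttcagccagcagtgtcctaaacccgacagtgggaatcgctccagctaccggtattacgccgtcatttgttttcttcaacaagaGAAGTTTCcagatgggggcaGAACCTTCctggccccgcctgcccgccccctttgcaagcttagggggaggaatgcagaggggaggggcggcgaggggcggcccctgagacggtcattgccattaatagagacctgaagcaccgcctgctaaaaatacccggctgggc
Dnajb1: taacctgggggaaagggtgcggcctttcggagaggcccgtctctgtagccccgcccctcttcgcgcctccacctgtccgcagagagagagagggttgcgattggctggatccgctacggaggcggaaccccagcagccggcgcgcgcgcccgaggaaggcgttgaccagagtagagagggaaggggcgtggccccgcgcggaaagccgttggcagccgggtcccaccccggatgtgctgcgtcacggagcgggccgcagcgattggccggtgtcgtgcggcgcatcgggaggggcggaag

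Hspa1a and Hspa1b encode the stress-inducible HSP70 and are near-identical copies. Their windows, chr17:34972107-34972406 and chr17:34959189-34959488 on the minus strand, were identical at 296 of 300 bases (98.7%), with a single short element at positions -104 to -97 in each.
Hspa1a: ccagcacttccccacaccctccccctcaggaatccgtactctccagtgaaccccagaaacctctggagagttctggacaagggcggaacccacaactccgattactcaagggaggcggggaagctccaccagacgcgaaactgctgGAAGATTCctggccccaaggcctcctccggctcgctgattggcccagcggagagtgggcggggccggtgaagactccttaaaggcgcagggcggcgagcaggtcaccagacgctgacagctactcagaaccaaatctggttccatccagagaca
Hspa1b: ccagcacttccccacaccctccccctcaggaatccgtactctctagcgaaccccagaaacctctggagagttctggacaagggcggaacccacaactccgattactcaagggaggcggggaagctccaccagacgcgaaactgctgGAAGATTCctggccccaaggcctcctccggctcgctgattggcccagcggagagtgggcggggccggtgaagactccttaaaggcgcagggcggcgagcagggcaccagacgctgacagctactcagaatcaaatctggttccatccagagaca

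Hspe1, the lid HSP10 of the mitochondrial chaperonin, had 2 overlapping long elements between positions -89 and -72 in chr1:55087898-55088197 on the plus strand. Chordc1, a zinc-binding cochaperone of HSP90, had 3 overlapping long elements between positions -4 and 19, across the start itself, and 1 further short element at positions 34 to 41 in chr9:18292017-18292316 on the plus strand. These windows held the most long elements of the 33 together with that of Hspd1, the neighbour of Hspe1.
Hspe1: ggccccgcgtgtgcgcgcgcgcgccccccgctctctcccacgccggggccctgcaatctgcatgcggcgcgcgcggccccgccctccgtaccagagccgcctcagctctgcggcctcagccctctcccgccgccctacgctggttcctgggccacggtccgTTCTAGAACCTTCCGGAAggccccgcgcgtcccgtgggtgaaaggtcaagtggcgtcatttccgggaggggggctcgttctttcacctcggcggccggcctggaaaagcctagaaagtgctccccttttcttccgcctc
Chordc1: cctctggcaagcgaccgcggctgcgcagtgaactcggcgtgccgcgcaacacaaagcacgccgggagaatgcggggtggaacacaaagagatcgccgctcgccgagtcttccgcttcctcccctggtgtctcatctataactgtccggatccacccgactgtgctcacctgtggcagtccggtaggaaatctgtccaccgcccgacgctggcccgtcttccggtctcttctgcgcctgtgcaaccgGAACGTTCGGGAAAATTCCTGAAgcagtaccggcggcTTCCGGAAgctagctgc

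WT libraries held 9575096 to 10168121 reads and AMPK KO libraries 10515155 to 11185360. The ribosomal RNA precursor Rn45s made up 20.7% to 24.9% of a WT library and 8.48% to 10.8% of an AMPK KO library. Prkaa1 had log2 values of 4.64, 5.24 and 4.86 in WT and of 4.08, 4.72 and 4.67 in AMPK KO, which overlap. The difference was -0.43 (SE 0.25, adjusted p = 0.357, limma), with an exact two-sided permutation p of 0.3, where 0.1 is the smallest value that 3 samples against 3 can give. A 3′ read outside the floxed exons does not test their deletion. Xist, the RNA of the inactive X chromosome, was read 8 to 32 times in a WT library and 1998 to 2876 times in an AMPK KO library, and the Y-linked Ddx3y had 3158 to 3462 and 1296 to 1840, although the methods describe female mice. Every AMPK KO library thus held many reads of both genes, whereas the WT libraries held few of Xist. Whether an AMPK KO sample mixed cells of both sexes was not tested. The sex of the cells and the genotype cannot be told apart here.

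Of the 40 genes, 4 rose in AMPK KO CD4 T cells and none fell. These were Hspa8, Dnajb1, Hsp90aa1 and Hspb1, with rises of 1.58-fold to 3.02-fold at an adjusted p under 0.05 (limma, two-sided, Benjamini-Hochberg over 11279 genes). Among all tested genes 2.54% were called higher and 3.1% lower. At an unadjusted p under 0.05 there were 7 members higher (Dnaja3, Hspa1b and Dnaja1 beside these 4) and 1 lower (Ahsa1), beside 10.6% of all tested genes higher and 10.7% lower. limma voom on whole reads called the same 4 higher and 0 lower. The means of 22 members were higher and those of 18 were lower, and the median log2 difference over the 40 was 0.05, beside 0.02 over all tested genes. In 6 members the 2 groups did not overlap in any sample (the 4 above, and Hspa4l and Chordc1 with lower values in AMPK KO), a share below the 25.6% of all tested genes.

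**Figure D1:**
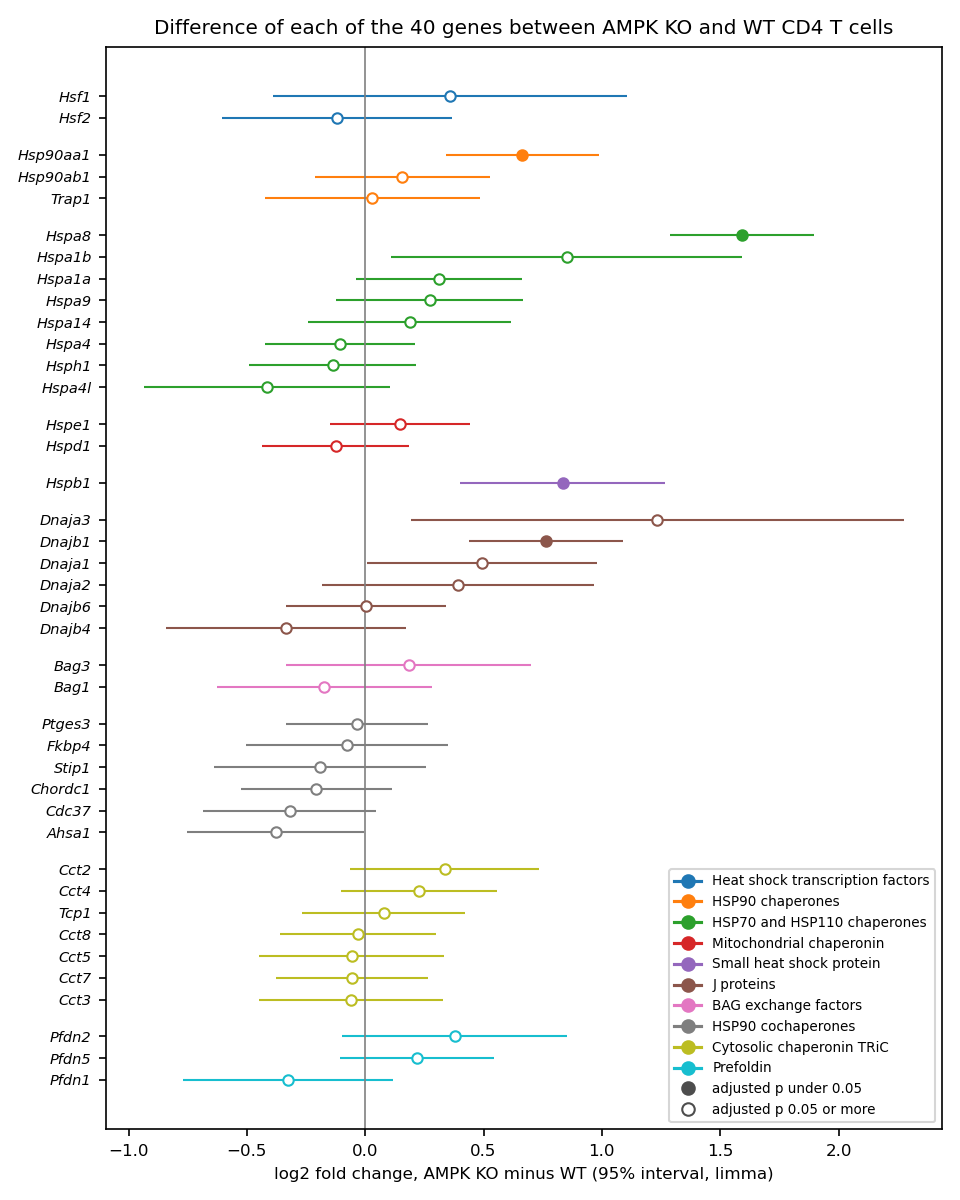
Log2 fold change of AMPK KO against WT (x axis, log2 units) for each of the 40 genes (rows), coloured by role, with the 95% interval from limma (n = 3 per group). Filled points are the 4 genes at an adjusted p under 0.05, and Hspa8 lies furthest to the right at 1.59, whereas the 6 HSP90 cochaperones all lie left of 0 (Ptges3 turned to 0.011 under quantile normalization, and Fkbp4 to 0.049 without AMPK KO sample 3 and 0.089 without WT sample 1).

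Hspa8, the constitutive HSP70 of the cytosol (HSC70) that also drives clathrin uncoating and chaperone-mediated autophagy, had the largest rise of the 4. Its log2 values were 8.32, 8.59 and 8.20 in WT and 9.95, 10.06 and 9.88 in AMPK KO, from 2591 to 3848 reads and 11178 to 11703 reads. Every AMPK KO sample lay more than 1 log2 unit above every WT sample. The difference was 1.59 (SE 0.14, 95% interval 1.29 to 1.90), which is 3.02-fold (adjusted p = 2.02e-05, limma), and the gene ranked 8 by p among all tested genes. The call held in each of the 15 alternative analyses, with adjusted p from 6.27e-07 to 0.0465. Hspa8 lies at chr9:40801276-40805202 (GRCm38, plus strand). Of the 50-base stretches in the last 500 bases of its transcript, 81.8% also occur in other annotated genes, 11 in number, none of which is listed in the files. How reads with several matching places were counted is not given in the sources used here, so reads of such copies cannot be told apart from those of Hspa8. Its introns host small nucleolar RNAs, of which Snord14c and Snord14d were listed at 0 reads.

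Dnajb1 (HSP40), the inducible J protein that stimulates the ATPase of HSP70, had log2 values of 8.999, 8.60 and 8.69 in WT and of 9.53, 9.71 and 9.33 in AMPK KO. The groups did not overlap, and the nearest values were those of WT sample 1 and AMPK KO sample 3. The rise was 0.76 (SE 0.15, 95% interval 0.44 to 1.09), or 1.70-fold (adjusted p = 0.0102, limma). The gene lies at chr8:83608175-83612653 (plus strand), and its last 500 transcript bases are not shared with another gene. The call was lost when AMPK KO sample 1 (adjusted p = 0.0627) or WT sample 3 (adjusted p = 0.0861) was left out and with no filter on low genes (adjusted p = 0.191), and over all alternatives the adjusted p ran from 0.00322 to 0.191.

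Hsp90aa1 encodes HSP90α, the inducible form of cytosolic HSP90. Its log2 values were 10.97, 10.82 and 10.68 in WT and 11.61, 11.42 and 11.43 in AMPK KO, from at least 14494 reads a library. All 3 AMPK KO samples lay above all WT samples. The rise was 0.66 (SE 0.15, 95% interval 0.34 to 0.99), or 1.58-fold (adjusted p = 0.0211, limma). The gene lies at chr12:110691036-110696395 (minus strand) and shares none of its last 500 transcript bases. The call was lost when AMPK KO sample 1 (adjusted p = 0.123), WT sample 1 (adjusted p = 0.0821) or WT sample 3 (adjusted p = 0.149) was left out, under quantile normalization (0.38, adjusted p = 0.124) and with no filter (adjusted p = 0.338), within a range of adjusted p from 0.00102 to 0.338.

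Hspb1, the ATP-independent holdase HSP27 that keeps unfolding proteins soluble, had log2 values of 5.43, 4.84 and 5.01 in WT and of 6.05, 5.73 and 6.01 in AMPK KO, from 276 to 388 and 559 to 771 reads. The groups did not overlap, and WT sample 1 lay nearest to the AMPK KO samples. The rise was 0.83 (SE 0.20, 95% interval 0.40 to 1.27), or 1.78-fold (adjusted p = 0.0286, limma). Its promoter window is the one printed above with 2 short elements. The gene lies at chr5:135887919-135889563 (plus strand), and 72 of the 451 stretches of 50 bases in its last 500 transcript bases are shared with the pseudogene Hsp25-ps1. Leaving out any sample but AMPK KO sample 2 ended the call, with an adjusted p of 0.142 and 0.0654 when AMPK KO samples 1 and 3 were dropped in turn, and of 0.0501, 0.0648 and 0.131 when WT samples 1, 2 and 3 were. With no filter it was 0.211, and the range over the alternatives was 0.00882 to 0.211.

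**Figure D2:**
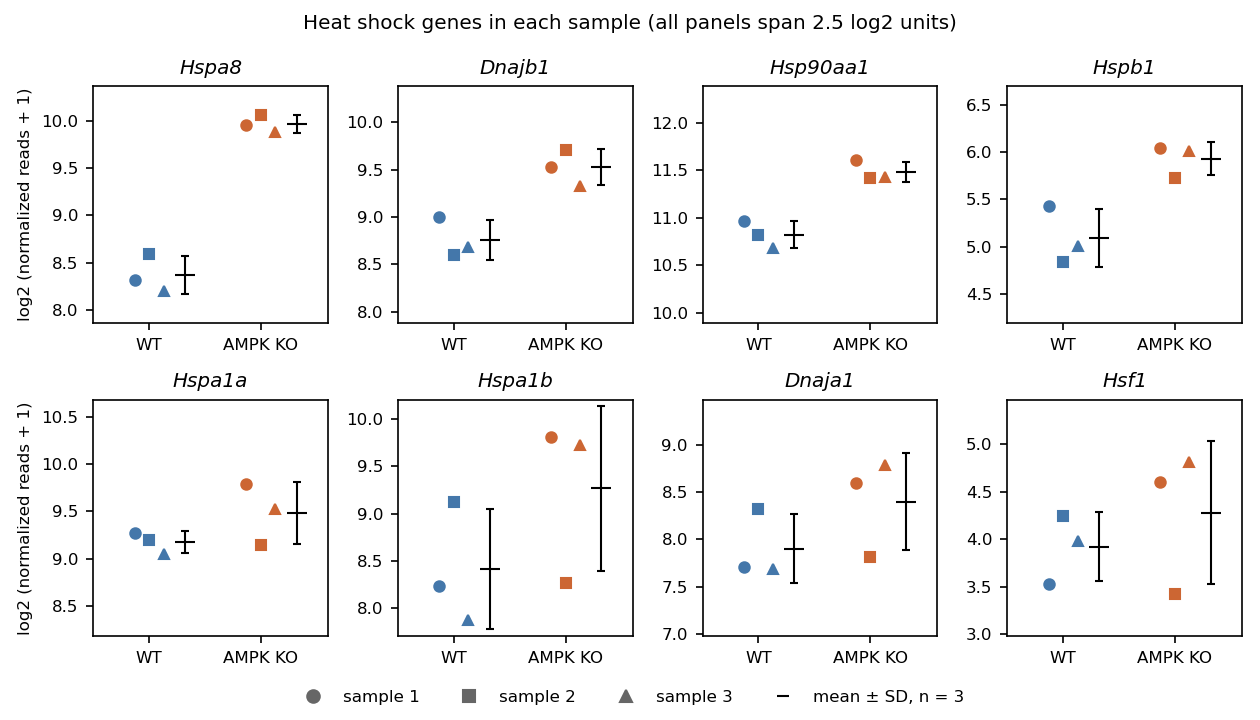
Log2 of normalized reads plus 1 (y axis) in each of the 3 WT and 3 AMPK KO samples for 8 genes, with the mean and SD of each group (n = 3). The top row shows the 4 genes past the threshold, whose groups do not overlap; in the bottom row AMPK KO sample 2 lies at or near the level of the WT samples, for example at 8.27 for Hspa1b where the other AMPK KO samples are at 9.80 and 9.73.

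The stress-inducible HSP70 genes and their regulator did not pass the test. Hspa1a had log2 values of 9.28, 9.20 and 9.05 in WT and of 9.79, 9.14 and 9.53 in AMPK KO, a difference of 0.31 (SE 0.16, adjusted p = 0.295, limma). Hspa1b had 8.24, 9.12 and 7.88 in WT and 9.80, 8.27 and 9.73 in AMPK KO, a difference of 0.85 (SE 0.35, adjusted p = 0.172, limma). In both genes AMPK KO sample 2 lay among the WT values and the other AMPK KO samples lay above them all. Hsf1 itself was read only 97 to 322 times a library, with log2 values of 3.53, 4.25 and 3.98 in WT and of 4.61, 3.42 and 4.81 in AMPK KO. The same sample held the lowest Hsf1 value of the 6, and the difference was 0.36 (SE 0.35, adjusted p = 0.599, limma). Hsf2, a related factor active in development, differed by -0.12 (SE 0.23). The last 500 transcript bases of Hspa1a and Hspa1b hold no shared stretch of 50 bases, although reads from their shared coding sequence could still be split. The annotated gene Gm20481 overlaps Hspa1a on the opposite strand, and the strand setting of the counting is not given in the sources used here.

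Without AMPK KO sample 2, 8 members were called higher and 1 lower, but calls over all genes also grew, to 5.88% higher and 5.16% lower. The members added were Hspa1b (1.35, adjusted p = 0.00104), Hspa1a (0.48, adjusted p = 0.0149) and the J proteins Dnaja1 (0.78, adjusted p = 0.00568) and Dnaja2 (0.72, adjusted p = 0.0281). Ahsa1, the activator of the HSP90 ATPase, fell by 0.53 (adjusted p = 0.0374, limma). The count of members higher fell to 1 when AMPK KO sample 1 or WT sample 3 was left out (Hspa8 each time), to 2 when WT sample 1 was, and to 3 when AMPK KO sample 3 or WT sample 2 was. The call of Hspa8 held in all 6 of these analyses.

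The deviations from the group means weakly grouped the samples across genotypes. WT sample 2 lay beside AMPK KO samples 1 and 3, and WT samples 1 and 3 lay beside AMPK KO sample 2. Correlations between WT and AMPK KO samples were 0.15 to 0.24 within this division and -0.32 to -0.08 across it. Deviations cancel within a group, so these correlations depend on one another. No label names a batch with this division. Among the members, 8 had their highest WT value in sample 2 and their lowest AMPK KO value in sample 2 (20% of the members, 19.9% of all tested genes), among them Hsf1, Hspa1b, Dnaja1 and Dnaja2, and 9 had the opposite order (22.5% and 19.2%). Within the 2 divisions the differences were 1.32 and 1.80 for Hspa8, 0.83 and 0.87 for Dnajb1, 0.70 and 0.60 for Hsp90aa1, and 1.18 and 0.51 for Hspb1. The sign of these was fixed, since the groups of these 4 genes do not overlap. They were 0.65 and 0.21 for Hspa1b, 0.46 and -0.02 for Hspa1a, and 0.46 and -0.34 for Hsf1. With 1 sample on a side these are values without a test. Over the 40 members, 16 were higher in both divisions, 9 were lower in both and 15 differed in sign or were level in one. The share of all tested genes was not counted, and the divisions were drawn from these same data, so these counts are a description only.

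**Figure D3:**
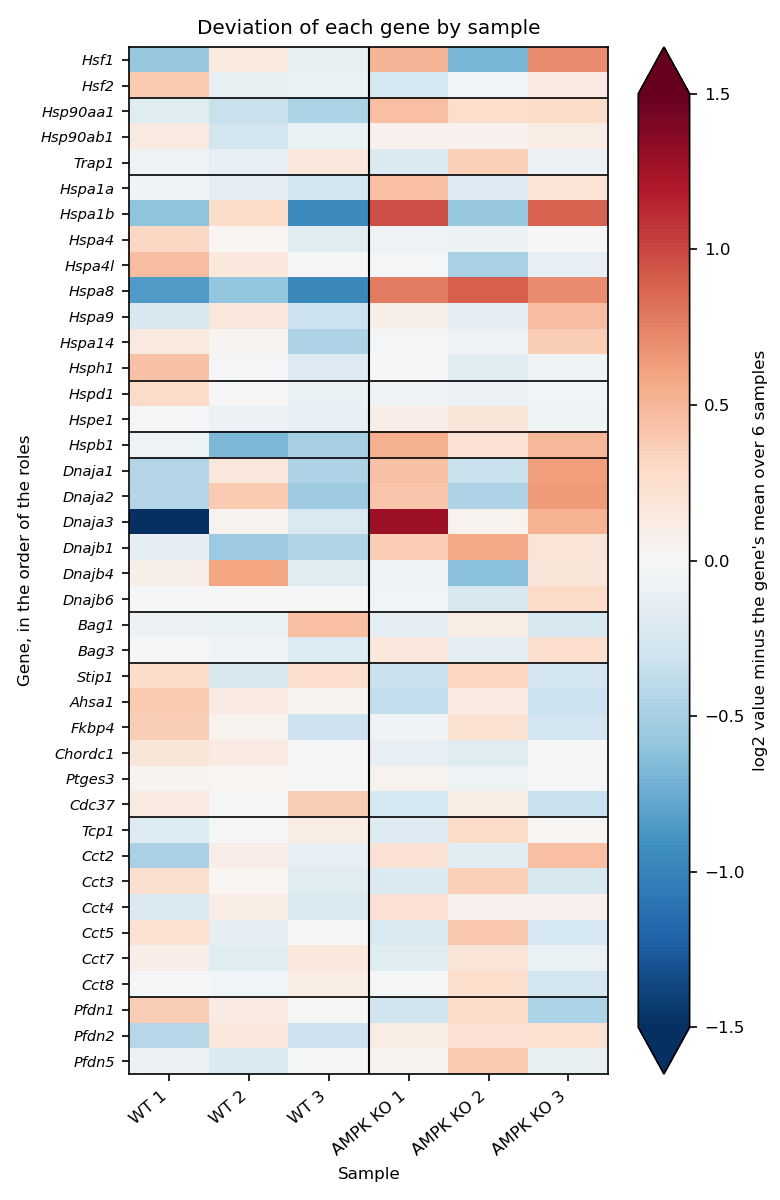
Deviation of each gene (rows, by role) from its own mean over 6 samples, in log2 units (colour), for the WT and AMPK KO samples (columns). Hspa8, Hsp90aa1, Dnajb1 and Hspb1 are low in all WT and high in all AMPK KO columns, whereas Hsf1, Hspa1b, Dnaja1 and Dnaja2 are low in AMPK KO sample 2.

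The other HSP90 chaperones did not pass the test. Hsp90ab1, the constitutive HSP90β, had the highest read count of the members (40840 to 63466) and differed by 0.16 (95% interval -0.21 to 0.53), a sign that turned under quantile normalization. Trap1, the mitochondrial HSP90, differed by 0.03 (95% interval -0.42 to 0.48). The HSP90 cochaperones had lower means in AMPK KO for all 6 (5 of 6 under quantile normalization, where Ptges3 turned, and without AMPK KO sample 3 or WT sample 1, where Fkbp4 turned to 0.049 and 0.089), and none passed the adjusted test. The differences were -0.38 for Ahsa1 (95% interval -0.75 to -0.01), -0.32 for the kinase loader Cdc37, -0.21 for Chordc1, -0.19 for Stip1 (the HSP70 to HSP90 adaptor HOP), -0.08 for the immunophilin Fkbp4 and -0.03 for Ptges3 (p23). Their median was -0.20, and it ran from -0.30 (without AMPK KO sample 2) to -0.13 (without AMPK KO sample 1) when 1 sample was left out. The 1 member at an unadjusted p under 0.05 in this direction was Ahsa1, and 39.5% of its 50-base stretches near the 3′ end are shared with another annotated gene.

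In the remaining HSP70 and HSP110 group no gene passed the adjusted test. Mitochondrial Hspa9 (mortalin) differed by 0.27 and ribosome-associated Hspa14 by 0.19, whereas the HSP110 exchange factors Hspa4, Hsph1 and Hspa4l differed by -0.11, -0.14 and -0.42. For Hspa4l the groups did not overlap, with 162 to 276 reads a library, and its adjusted p was 0.347 (limma). Of the J proteins, which select HSP70 substrates, 5 of 6 had higher means. Among these, Dnajb6 turned to -0.066 on scaling outside Rn45s, to -0.14 without AMPK KO sample 3 and to -0.004 without WT sample 3. Dnaja1 differed by 0.49 (95% interval 0.01 to 0.98), Dnaja2 by 0.39 and Dnajb6 by 0.00, and Dnajb4 by -0.33. Dnaja3, a mitochondrial J protein, differed by 1.23 (95% interval 0.19 to 2.28, adjusted p = 0.158, limma), but from only 6 to 141 reads a library, and Coro7 and Vasn overlap it. The exchange factors Bag3, which is HSF1-induced and guides selective autophagy, and Bag1 differed by 0.18 and -0.17.

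No chaperonin or prefoldin gene passed the test. Hspd1 (HSP60) differed by -0.12 (95% interval -0.44 to 0.19) and its lid Hspe1 by 0.15 (95% interval -0.15 to 0.44). In TRiC, 3 of 7 subunits had higher means (5 of 7 under quantile normalization) and none passed the test, with differences of 0.34 for Cct2, 0.23 for Cct4, 0.08 for Tcp1, -0.03 for Cct8, -0.06 for Cct5, -0.06 for Cct7 and -0.06 for Cct3. Their median was -0.03, and under quantile normalization it was 0.02. Leaving out AMPK KO sample 1 or 3 gave 6 of 7 higher (median 0.04 and 0.08), leaving out WT sample 1 or 3 gave 4 and 5 of 7 (median 0.05 and 0.02), and leaving out AMPK KO sample 2 gave 2 of 7 (median -0.17). The 95% intervals of Cct8, Cct5, Cct7 and Cct3 lay within -0.45 to 0.34. The prefoldin subunits Pfdn2, Pfdn5 and Pfdn1 differed by 0.38, 0.22 and -0.33.

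The members known as strongly heat-inducible targets of HSF1 (Hspa1a, Hspa1b, Hsph1, Hspb1, Dnajb1, Hsp90aa1 and Bag3) had higher means for 6 of 7, with 3 past the threshold (2.54% of all tested genes were called higher) and a median of 0.66. None of the 7 was called higher without AMPK KO sample 1, without WT sample 3 or with no filter (0 in each), 1 was without WT sample 1, and 5 were without AMPK KO sample 2. Hsph1 was the exception at -0.14, from 1925 to 3126 reads, and it has a long element in its promoter window. Outside these 7, the members with a long element were Hspd1 (-0.125), Hspe1 (0.146), Dnajb6 (0.003) and Chordc1 (-0.207), and none was called. The 7 were listed with earlier results of these data known, so their counts and median are a description only. The 15 members with a short element had a median of 0.00 with 1 called, and the 18 with a window and no element had -0.03 with 1 called. Of the 7 without a window 2 were called, Hspa8 and Hsp90aa1.

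Summed over the 40 genes, the normalized reads of a WT sample came to between 11796 and 13660, and those of an AMPK KO sample to between 15154 and 16182. The 4 genes past the threshold made up 2373 to 2878 of these in WT and 4411 to 4903 in AMPK KO. The other 36 made up 9422 to 10783 and 10458 to 11411. This split was made by the test itself, so that the gap between the groups in the sum of the 4 follows from the choice and is a description only. In bulk samples, fewer cells of a type and less RNA per cell cannot be told apart for any of these values.

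Paralogs and partners were also compared within each sample, in 4 pairs chosen after the values had been seen, so that the scaling of a library cancels. The log2 level of Hsp90aa1 minus that of Hsp90ab1 was -1.37 ± 0.16 for WT and -0.86 ± 0.12 for AMPK KO (SD, n = 3 each), without overlap (exact permutation p = 0.1, the smallest possible). For Hspa8 minus Hspa1a it was -0.81 ± 0.18 in WT and 0.48 ± 0.40 in AMPK KO (SD, n = 3 each), also without overlap (exact permutation p = 0.1). The differences of Hspe1 minus Hspd1 and of Hspa1b minus Hspa1a overlapped between the groups (exact permutation p = 0.2 for each, n = 3). Since a 3′ library captures transcripts unequally, these values compare the groups and not the amounts of the paired genes, and the adjusted p over the 4 pairs was 0.2 for each.

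**Figure D4:**
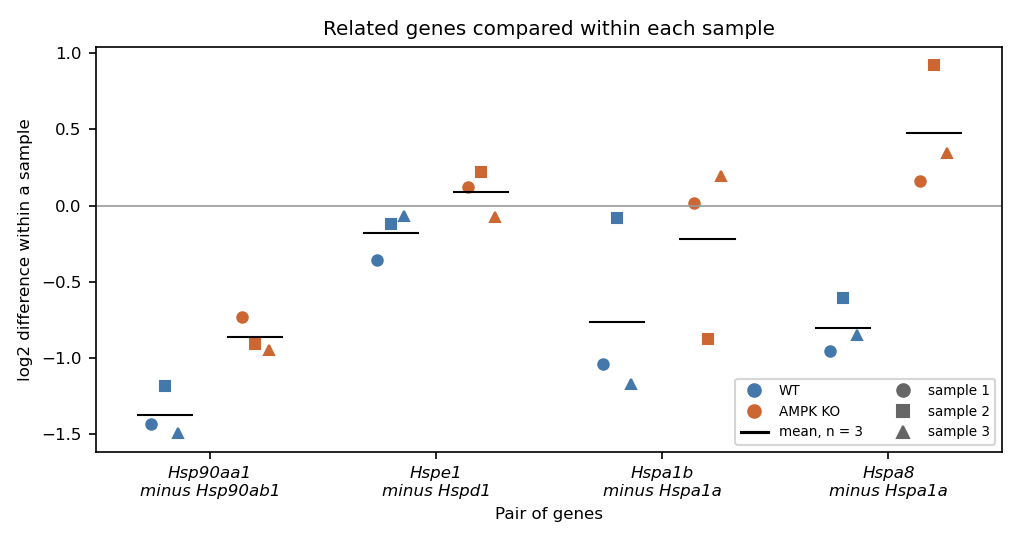
Log2 difference between 2 related genes within a sample (y axis) for 4 pairs (x axis), in the 3 WT and 3 AMPK KO samples, with a line at each group mean (n = 3). Hsp90aa1 minus Hsp90ab1 and Hspa8 minus Hspa1a are higher in every AMPK KO sample than in every WT sample.

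Beyond the 40, the wider system was read from 6 lists of 83 further chaperone, cochaperone and HSF1-linked genes, of which 71 were tested. Only Dnaja4, a heat-inducible J protein (a 2.29-fold rise, log2 SE 0.24, adjusted p = 0.00942), and Ier5, a feedback regulator of HSF1 (a 1.47-fold rise, log2 SE 0.14, adjusted p = 0.0305), rose, and none fell (limma). At an unadjusted p under 0.05 there were 7 higher and 5 lower. The shares of all tested genes are those given above (2.54% called higher, and 10.6% higher and 10.7% lower at an unadjusted p), and the counts of these 71 lie near or below them. Neither was called when AMPK KO sample 1 or WT sample 1 was left out (0 genes each time), and Ier5 was also lost when AMPK KO sample 3, WT sample 2 or WT sample 3 was left out (1 gene each time). The median of the 71 was 0.04, and 7 genes, among them the small heat shock proteins Hspb2, Hspb3, Hspb8, Hspb9 and Cryab, were listed at 0 reads in all 6 samples, which leaves an expected count of up to 3 reads a library.

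The chaperones of the ER, which serve secreted proteins under another stress pathway, are the set most like this one. Of their 21 genes 17 had higher means and 2 rose, namely Creld2 (1.58, adjusted p = 0.0369, limma) and Manf (1.14, adjusted p = 0.0352, limma), with a median of 0.32, where 2.54% of all tested genes were called higher. Both calls were lost when AMPK KO sample 1 or 3 or WT sample 1 or 3 was left out, with an adjusted p of up to 0.161 for Creld2 and 0.180 for Manf. At an unadjusted p under 0.05 there were 7 of the 21 higher and 0 lower, beside 10.6% of all tested genes higher. Of 31 constitutive proteasome subunits 22 had higher means and none passed the adjusted test, with 6 at an unadjusted p under 0.05, all higher, and a median of 0.16. Differences between these lists and the 40 members were not tested.

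Immediate early genes, which respond to T cell activation and also to tissue handling, moved in both directions. Of 10 such genes Fosb (0.70), Dusp1 (0.84) and Ier3 (0.98) rose, and Egr1 (-0.76) and Btg2 (-0.62) fell, where 2.54% of all tested genes were called higher and 3.1% lower. Each of these 5 calls rested on single samples. Without WT sample 1 the adjusted p was 0.150 for Dusp1, 0.0650 for Ier3, 0.0656 for Egr1 and 0.0986 for Btg2. Without AMPK KO sample 1 it was 0.101 for Fosb, 0.115 for Dusp1, 0.0931 for Ier3 and 0.0912 for Btg2. Without WT sample 3 it was 0.115 for Fosb, 0.147 for Dusp1, 0.129 for Ier3 and 0.0655 for Btg2, and without WT sample 2 it was 0.0625 for Ier3. Markers of other cells differed between the groups as well. Macrophage markers had higher means for 11 of 11 tested genes, 6 of which rose, namely C1qa (1.85), C1qc (1.51), C1qb (1.503), Vcam1 (1.24), Cd68 (1.10) and Csf1r (0.97), and their summed normalized reads were between 446 and 506 in the WT samples and between 844 and 1574 in the AMPK KO samples. Plasma cell markers were higher for 5 of 6, with sums of 197 to 247 and 511 to 545, and the called gene was Jchain (2.60). NK cell markers were higher for 5 of 5 (1 called, Klrk1 at 1.62, with sums of 23.7 to 39.2 and 50.02 to 58.9), B cell markers for 5 of 9 (267 to 288 and 255 to 310), erythroid markers for 3 of 7 (3992 to 4600 and 2891 to 5575) and neutrophil markers for 2 of 8 (Ltf at -1.54 and Ngp at -1.53 called lower, 793 to 908 and 521 to 761). T cell markers were higher for 2 of 10, and Cd3e, Cd3g, Cd28 and Tcf7 fell, with sums of 2056 to 2285 and 1548 to 1988. Without WT sample 1 the calls of Cd3e, Cd3g, Cd28 and Csf1r were lost (adjusted p = 0.122, 0.0584, 0.244 and 0.0796, limma). Cd3e and Cd28 were also lost without AMPK KO sample 1 or 3 or WT sample 3, and Csf1r without AMPK KO sample 1 or WT sample 2 or 3 (adjusted p from 0.0507 to 0.238). Klrk1 was lost without AMPK KO sample 1, WT sample 1 or WT sample 3 (adjusted p = 0.0945, 0.0882 and 0.0611, limma), which left 0 NK cell calls. Ltf was lost without AMPK KO sample 1 or WT sample 1, 2 or 3 (adjusted p = 0.129, 0.0536, 0.0793 and 0.126, limma), which left 1 neutrophil call, and C1qb without WT sample 1 (adjusted p = 0.0562, limma). The calls of Tcf7, Jchain, C1qa, C1qc, Vcam1, Cd68 and Ngp held whichever sample was left out. Cd4 was read 809 to 1127 times in WT and 829 to 1096 times in AMPK KO (log2 difference -0.36, adjusted p = 0.224, limma). The CD8 T cell markers Cd8a and Cd8b1 had higher means (0.34 and 0.38), both at an unadjusted p under 0.05 and neither past the adjusted test, with sums of 231 to 305 and 321 to 376. No list had a marker at 0 in all 6 samples. The part of these cells, of handling, of sex and of the Rn45s share in the rises of Hspa8, Dnajb1, Hsp90aa1 and Hspb1 was not tested. The labels do not say which animals a sample came from. The limma p-values set each difference against the spread between these 6 samples. In that fit the spread of a gene is drawn toward that of other tested genes at a similar level.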

How the data were processed

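QuantSeq 3′ reads per gene were scaled by the authors (TMM, then CPM), and the deposited unit is log2 of the scaled value plus 1, with genes given by symbol. The submitters' processing notes name Bowtie2, bedtools and mm10, and their versions, the annotation and the strand setting are not given in the sources used here. Each sample lists 23282 lines, of which 79 repeat 35 symbols.

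The deposited values were tested as they are with limma 3.58.1 (lmFit, eBayes with trend, genotype only) in R 4.3.3 for genes with a mean log2 of at least 1, two-sided, with Benjamini-Hochberg adjustment and a threshold of 0.05. A fold change on this scale understates the change of low genes. Single values were also tested by an exact permutation test. The fit was tested on simulated data. Among values of at most 100 reads, 100% came out whole (tolerance 0.1), which gave reads and depth; their number limits precision by counting error only. Count models were not run on these recovered whole reads, and limma voom on them was run in their place.

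The members, gene lists and tests were chosen with earlier results of these data known. Members past the threshold and Hsf1, Hspa1a and Hspa1b are given in every sample and all others by their difference; genes of other lists are named with values where past the threshold, and Cd4, Cd8a and Cd8b1 beside them. The alternatives were quantile normalization, scaling outside Rn45s, pseudocounts of 0.25 and 4, filters, a replicate block, robust estimation, voom and leaving out each sample. The values within divisions of the samples were added after seeing the data. Positions come from GENCODE M21 and promoters from RefSeq (GRCm38.p6). Summaries and plots were made in Python 3.11.15 (numpy 2.4.6; scipy 1.17.1; pandas 2.3.3) with matplotlib 3.10.9.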

Additional observations from a re-analysis of the deposited data

How the results depend on the processing

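Hspa8 was called higher in all 15 alternatives, whereas the number of members called higher depended on the filter and on single samples. It was 4 in the reported analysis and 1 with no filter (16 of all genes higher and 23 lower, 0 of the other genes of the system higher) and 1 with the replicate block (50 and 52 of all genes, 0 of the other genes; adjusted p = 0.0821 for Dnajb1, 0.105 for Hsp90aa1 and 0.106 for Hspb1, limma). Same-numbered samples did not deviate together (correlations of -0.08, -0.32 and -0.16), so the numbers were not read as pairs. Against 287 genes higher and 350 lower, scaling to the reads outside Rn45s gave 231 and 487, with the same 4 members called and a member median of -0.015. Dnajc8, one of the other genes of the system, was called lower (a count of 1 in place of 0) with a mean log2 of at least 3, a pseudocount of 4, robust estimation and scaling outside Rn45s. A long in place of a short heat shock element left 5 members. Quantile normalization turned Hsp90ab1 to -0.16, Ptges3 to 0.011, Cct5 to 0.018 and Cct8 to 0.02, and scaling outside Rn45s turned Trap1 to -0.038 and Dnajb6 to -0.066. With voom on whole reads Dnaja3 differed by 1.65 and Hspa8 by 1.59. No cause of these shifts was tested.

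Over the analyses that leave out 1 sample, members called higher ranged from 1 to 8 and lower from 0 to 1, other genes of the system from 0 to 4 in each direction, all genes from 71 to 662 higher and from 56 to 581 lower, and the member median from 0.033 to 0.14. Ranges that crossed 0 were -0.26 to 0.046 for Cct3, -0.27 to 0.062 for Cct5, -0.17 to 0.018 for Cct7, -0.17 to 0.10 for Cct8, -0.14 to 0.15 for Trap1, -0.046 to 0.20 for Tcp1, -0.14 to 0.12 for Dnajb6, -0.25 to 0.089 for Fkbp4, -0.21 to 0.049 for Hsf2, -0.23 to 0.023 for Hspa4, -0.27 to 0.048 for Hsph1 and -0.27 to 0.008 for Bag1. Prkaa1 ranged from -0.56 to -0.22. The edgeR and DESeq2 fits among the alternatives were not run. Depth limits Dnaja3 (6 to 141 reads), which the filter at a mean of 3 removed, and Hsf1 (97 to 322 reads).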
